A study of Mus musculus with 31 samples.

Results

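The transcripts described here come from 9 genes of the activity-regulated transcription factor network, chosen by gene symbol: the 4 early growth response factors Egr1 to Egr4, their corepressors Nab1 and Nab2, and the 3 orphan nuclear receptors Nr4a1, Nr4a2 and Nr4a3. All 9 were among the 48795 genes of the deposited count table, and all 9 passed the filter on low counts that left 19529 genes for testing. The study sequenced total RNA from aliquots of homogenised mouse brain in 31 samples, each labelled only with its agent. The control group had 13 libraries and the deltamethrin group 18. Deltamethrin, a synthetic insecticide of the pyrethroid class, keeps neuronal sodium channels open, and the exposure was developmental per the series' design text. Strain, genotype, sex, age, dose, litter and time of collection are not given in the sources used here. A brain homogenate mixes many regions and cell types, so fewer cells that express a gene and less RNA per cell cannot be told apart. Nothing in the labels says that the samples are separate animals, so p-values measure the spread between these samples only.

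Egr and Nr4a genes are immediate early genes. Synaptic activity and growth factor signals reach their promoters through kinases of the MAP kinase and cAMP pathways, which act on serum response factor with its ETS partners and on CREB, and the genes are transcribed within minutes with no need for new protein. Egr proteins are zinc finger activators of GC-rich promoter sites. Nab1 and Nab2 bind Egr1, Egr2 and Egr3 and repress their activity, and Nab2 is itself a known Egr target, which closes a negative feedback loop. Nr4a receptors bind DNA as monomers or dimers without a known natural ligand that they require. Nr4a2 is also a lasting identity factor of midbrain dopamine neurons and of deep cortical and claustral neurons, so its level in whole brain does not depend on recent activity alone.

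Total counts per library ran from 17570311 to 35716869 in control and from 24563143 to 38680621 in deltamethrin. Libraries differed in composition, and mitochondrial ribosomal RNA (mt-Rnr1 and mt-Rnr2) took from 8.49 to 40.2% of counts in control and from 7.32 to 26.3% in deltamethrin. Markers of striatum (9 of 9), cerebellum (9 of 9), cortex and hippocampus (9 of 9) and choroid plexus (8 of 8) all passed the count filter, as did 5 of 7 markers of midbrain dopamine neurons and 2 of 4 Schwann cell markers. By edgeR no marker of any list had an adjusted p under 0.05. Fold changes were negative for 9 of 9 striatum, 8 of 8 choroid plexus and 5 of 5 blood markers and positive for 9 of 9 cerebellum and 5 of 5 endothelial markers, of which 0, 3, 0, 1 and 2 had an unadjusted p under 0.05. They were negative for 5 of 9 markers of cortex and hippocampus, 4 of 6 of claustrum, subplate and layer 6b, 2 of 6 of microglia and 1 of 5 of midbrain dopamine neurons, and only 1 microglial marker of these had an unadjusted p under 0.05. Control replicate 10 and deltamethrin replicate 5 stood apart for most of the inducible genes described here. These 2 libraries were the 2 highest of the 31 for 6 of the 9 members (Egr1, Egr2, Egr3, Egr4, Nr4a1 and Nr4a3), against 0.702% of all genes tested. Deltamethrin replicate 5 was the highest of the 31 for 5 of the 9 members, where it was for 1.18% of all genes. Control replicate 10 was the highest for 1 of the 9 (Egr4), and for 6.36% of all genes. Their total counts (27017045 and 29722159) and mitochondrial ribosomal RNA shares (13.97 and 14.97%) lay inside the ranges of the other libraries. They carry opposite labels, and the results they move most are given with and without them.

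No member differed between deltamethrin and control brains after adjustment over all genes. By edgeR's quasi-likelihood test 0 of the 9 had an adjusted p under 0.05, where 0% of all genes did, and 0 of the 9 had an unadjusted p under 0.05, where 4.37% of all genes did. DESeq2 and limma voom also gave 0 of 9 under either rule. The log2 fold change (deltamethrin over control) was negative for 6 members and positive for 3, with a median of -0.087 beside 0.0014 over all genes tested. For each of the 9 genes the libraries of the groups overlapped, and 0 of the 19529 genes tested had groups that did not overlap. Levels are given as CPM, read counts divided by the library's total after TMM scaling.

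Egr1, the most widely expressed factor of its family in forebrain and a common marker of neuronal activity (chromosome 18, 34859823 to 34864984, plus strand, GRCm38), ran from 30.6 through a median of 54.5 to 73.3 CPM in the control libraries. In deltamethrin it ran from 32.1 through 43.7 to 82.0 CPM. Most deltamethrin libraries lay in the lower part of the control range, 15 of 18 below the control median, while replicate 5 lay above every control. The means were 52.5 ± 16.1 CPM (SD, n = 13) and 46.5 ± 12.97 CPM (SD, n = 18), a log2 fold change of -0.18 ± 0.14 (SE) with a 95% interval of -0.46 to 0.11 (edgeR unadjusted p = 0.214, adjusted 0.818). A difference of the size seen was thus within the spread between libraries.

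Egr2 (Krox20; chromosome 10, 67535475 to 67542188, plus strand), known for its part in hindbrain patterning and Schwann cell myelination, is also strongly induced by neuronal activity and was the least abundant member. Control libraries ran from 0.706 through a median of 2.02 to 7.92 CPM. Deltamethrin libraries ran from 0.494 through 1.29 to 15.6 CPM. The highest deltamethrin value came from replicate 5 alone, and the next library of that group had 1.78 CPM, 8.74 times less. It rested on 479 reads in deltamethrin replicate 5 and 220 in control replicate 10, against 12 to 141 in the other 29 libraries. Below those 2 libraries, the deltamethrin values were packed at or under the control median, with 17 of 18 below it. Over all libraries the log2 fold change was -0.27 ± 0.41 (SE), with an interval of -1.11 to 0.57 (edgeR unadjusted p = 0.516, adjusted 0.883). Over the same libraries it was -0.55 ± 0.33 by limma voom (unadjusted p = 0.110), -0.46 ± 0.41 with the number in the sample title as a covariate and -0.44 ± 0.42 with the striatum markers as one, and none of these passed. Of the Schwann cell markers tested, Prx had a log2 fold change of 0.40 ± 0.17 (SE, edgeR unadjusted p = 0.0231, adjusted 0.813) and Ncmap of -0.050 ± 0.17, and 1 of the 4 markers was at 0 in every library.

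Egr3 (chromosome 14, 70077203 to 70082614, plus strand), which acts downstream of synaptic activity and is needed for muscle spindle development, had nearly equal means in both groups. They were 21.03 ± 7.44 CPM in control (SD, n = 13; lowest 6.96, median 21.3, highest 34.0) and 21.1 ± 6.31 CPM in deltamethrin (SD, n = 18; lowest 9.50, median 20.5, highest 38.0). The log2 fold change was 0.0014 ± 0.16 (SE), and its interval of -0.33 to 0.34 does not show that the groups are alike to better than that width. Control replicate 2 held the lowest value, and it also had the highest mitochondrial ribosomal RNA share of all libraries. The same library had the lowest total count (17570311) and the lowest TMM scaling factor (0.613, against a control median of 1.03), and it was the highest for Nab1.

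Egr4 (chromosome 6, 85511121 to 85513589, minus strand), a short activity-induced gene of the same family, ran from 9.45 through 17.3 to 46.1 CPM in control and from 10.02 through 13.9 to 40.3 CPM in deltamethrin. Each group had 1 library far above its others, since the second highest was 22.1 CPM in control and 20.4 CPM in deltamethrin. The deltamethrin values lay below the control median in 16 of 18 libraries. The log2 fold change was -0.31 ± 0.19 (SE), with an interval of -0.68 to 0.071 (edgeR unadjusted p = 0.108, the smallest of the 9 members, adjusted 0.813).

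Nr4a1 (Nur77; chromosome 15, 101254269 to 101274795, plus strand), readily induced by depolarisation and known in T cells as a marker of antigen receptor signalling, ran from 14.1 through 31.2 to 67.4 CPM in control. In deltamethrin it ran from 11.97 through 21.5 to 80.7 CPM, and the second highest deltamethrin library had 41.0 CPM. The lower median of the deltamethrin group came with 15 of 18 libraries below the control median and 1 above the control maximum. The log2 fold change was -0.32 ± 0.22 (SE), with an interval of -0.77 to 0.12 (edgeR unadjusted p = 0.151, adjusted 0.813).

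Nr4a2 (Nurr1; chromosome 2, 57106830 to 57124003, minus strand), required for the midbrain dopamine phenotype, had none of the high values in the 2 libraries named above. It had 22.4 ± 5.46 CPM in control (SD, n = 13; lowest 15.1, median 20.8, highest 31.7) and 22.99 ± 4.45 CPM in deltamethrin (SD, n = 18; lowest 13.5, median 23.04, highest 30.8). Deltamethrin replicate 5 ranked 10 of 31 and control replicate 10 ranked 23. The log2 fold change was 0.035 ± 0.11 (SE), with an interval of -0.18 to 0.25. Nr4a3 (Nor1; chromosome 4, 48045153 to 48086447, plus strand), the third receptor of the family, averaged 15.8 ± 3.60 CPM in the controls (SD, n = 13; lowest 11.9, median 14.98, highest 24.8) and 16.2 ± 5.61 CPM in deltamethrin (SD, n = 18; lowest 10.3, median 14.7, highest 34.7). For Nr4a3 the fold change was 0.036 ± 0.13 (log2, SE), with an interval of -0.23 to 0.31. For Nr4a3 the 2 libraries were again the highest of their groups, above values that otherwise reached 18.96 CPM in control and 22.3 CPM in deltamethrin.

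Over all 31 libraries the log2 CPM of the corepressors varied least (SD 0.278 for Nab1 and 0.218 for Nab2, then 0.309 for Nr4a2). Nab1 (chromosome 1, 52457294 to 52500679, minus strand) averaged 62.1 ± 13.9 CPM in the controls (SD, n = 13; lowest 45.5, median 58.3, highest 98.7) and 61.1 ± 11.9 CPM in deltamethrin (SD, n = 18; lowest 43.0, median 57.4, highest 85.7), a log2 fold change of -0.023 ± 0.10 (SE). Nab2 (chromosome 10, 127660918 to 127668568, minus strand) averaged 19.4 ± 3.34 CPM in the controls (SD, n = 13; lowest 12.8, median 20.3, highest 24.1) and 18.3 ± 2.23 CPM in deltamethrin (SD, n = 18; lowest 15.4, median 18.5, highest 22.1), a log2 fold change of -0.087 ± 0.076 (SE). Their intervals, -0.23 to 0.18 for Nab1 and -0.24 to 0.068 for Nab2, were the 2 narrowest. Nab2 overlaps Stat6, Gm16229 and Nemp1 on the opposite strand, and the use of strand in counting is not given in the sources used here, so part of its count may belong to those genes.

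**Figure D1:**
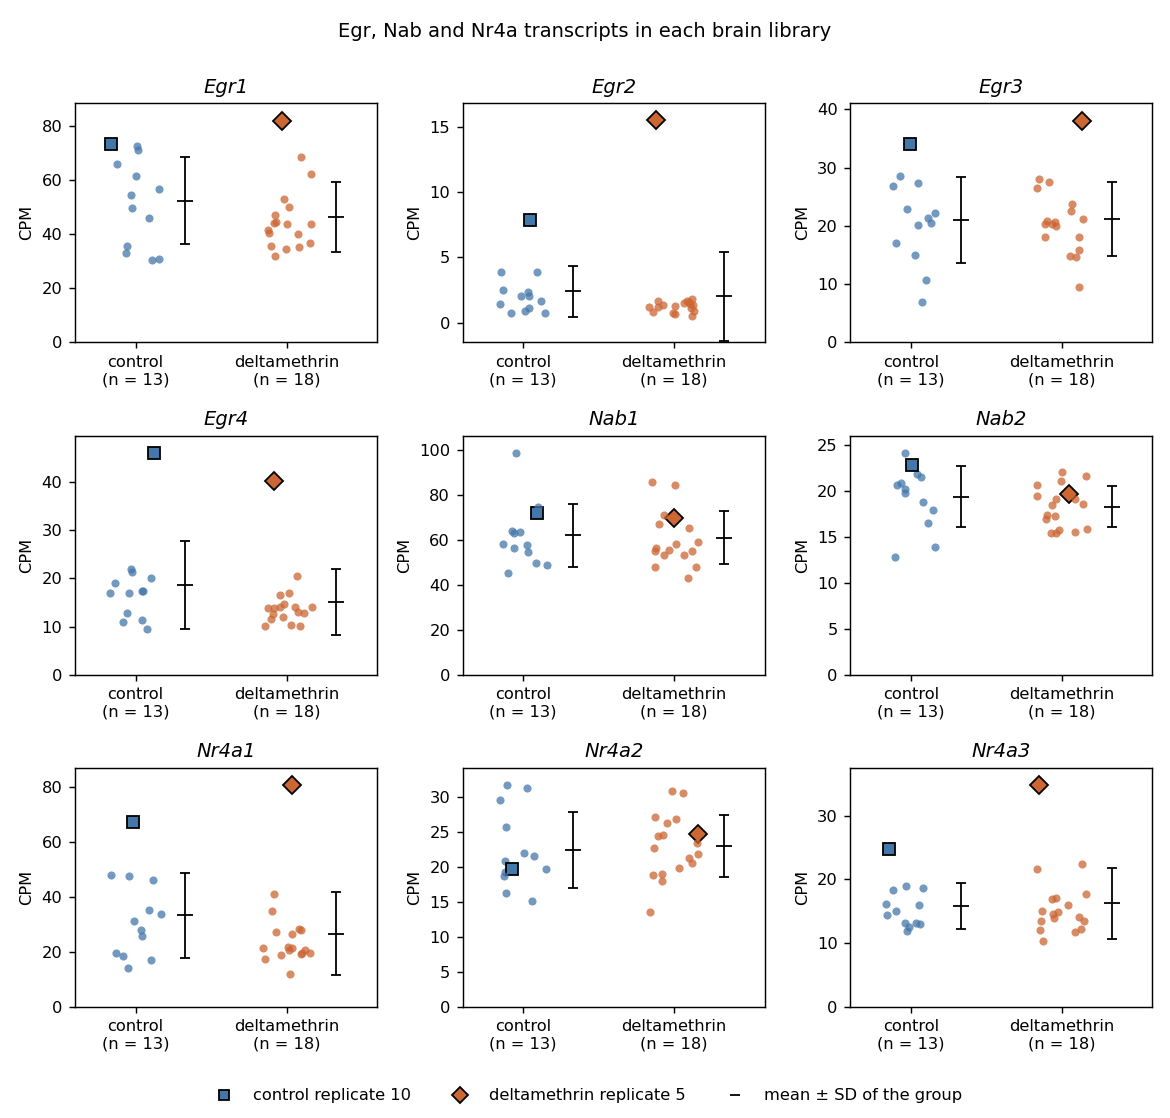
CPM of each member in every library, control (13 points) and deltamethrin (18 points), with the group mean ± SD beside the points and each panel on its own axis. Control replicate 10 (square) and deltamethrin replicate 5 (diamond) are the 2 highest libraries for Egr1, Egr2, Egr3, Egr4, Nr4a1 and Nr4a3, but not for Nab1, Nab2 and Nr4a2.

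Levels can be compared between genes only per length, so CPM was divided by the exon length of each gene in kilobases. On that scale the control means were ordered Nab1 (15.2 ± 3.40), Egr1 (11.7 ± 3.60), Nr4a1 (9.49 ± 4.41), Egr4 (8.66 ± 4.28), Nab2 (6.59 ± 1.14), Nr4a2 (5.52 ± 1.35), Egr3 (4.77 ± 1.69), Nr4a3 (2.64 ± 0.600) and Egr2 (0.705 ± 0.577), each SD over 13 libraries. Neighbours in that order from Nab1 down to Egr3 differed by less than the larger of their SDs, while Nr4a3 lay below Egr3, and Egr2 below Nr4a3, by more than that. An SD here is a spread between libraries, not the error of a mean, and the same libraries enter every gene. The comparison is thus a description, and the order was not tested. In deltamethrin the same per-kilobase order held, from 14.9 ± 2.90 for Nab1 to 0.593 ± 1.003 for Egr2 (SD, n = 18).

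The members spanned most of the range of variability seen in these brains. The biological coefficient of variation, edgeR's estimate of the spread between libraries beyond counting noise, was 75.3% for Egr2, higher than in 99.9% of all genes tested. It was 41.5% for Nr4a1, 35.3% for Egr4, 31.4% for Egr3, 26.8% for Egr1, 25.2% for Nr4a3, 20.5% for Nr4a2, 19.3% for Nab1 and 14.4% for Nab2. The common value over all genes was 20.2%. Part of this order came with control replicate 10 and deltamethrin replicate 5. Without them the value was 40.03% for Egr2 (above 93.5% of genes), 31.5% for Nr4a1, 28.5% for Egr3, 24.5% for Egr1, 21.05% for Egr4 and 18.9% for Nr4a3, and 21.1% for Nr4a2, 19.7% for Nab1 and 14.2% for Nab2. Egr4 and Nr4a3 then varied about as much as Nr4a2 and Nab1.

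The size of 3 fold changes depended on which libraries entered the fit. Without deltamethrin replicate 5 the log2 fold change was -0.98 ± 0.26 (SE) for Egr2, -0.45 ± 0.15 for Egr4 and -0.50 ± 0.18 for Nr4a1. Their unadjusted p-values were then 0.000757, 0.00577 and 0.00988, and after adjustment across the genome edgeR gave 0.713 for each, so 0 of 9 passed. That made 3 of 9 members lower and 0 higher at an unadjusted p under 0.05, where 3.06% of all genes were lower and 2.6% higher (5.67% in either direction). Leaving out control replicate 10 instead gave 0.030 ± 0.41 for Egr2, -0.12 ± 0.16 for Egr4 and -0.19 ± 0.21 for Nr4a1, and 0 of 9 members had an unadjusted p under 0.05, where 2.68% of all genes did (1.27% lower, 1.41% higher).

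With both libraries left out, a setting chosen after their values were seen, Egr2 averaged 1.94 ± 1.09 CPM in control (SD, n = 12) and 1.22 ± 0.378 CPM in deltamethrin (SD, n = 17). That is a log2 fold change of -0.68 ± 0.23 (SE; edgeR unadjusted p = 0.00486, adjusted 0.922). Egr4 then had -0.26 ± 0.11 (unadjusted p = 0.0281) and Nr4a1 -0.37 ± 0.17 (unadjusted p = 0.0372), both with an adjusted p of 0.922 by edgeR. These 3 of 9 members were lower at an unadjusted p under 0.05, where 1.72% of all genes were lower, 1.67% higher and 3.39% called in either direction, and none passed over all genes. Egr1 (-0.19 ± 0.13), Egr3 (0.012 ± 0.15), Nr4a2 (0.020 ± 0.11), Nr4a3 (0.010 ± 0.10), Nab1 (-0.013 ± 0.11) and Nab2 (-0.068 ± 0.078) had unadjusted p-values above 0.05 in that fit. The difference between the genes' responses was not itself tested.

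**Figure D2:**
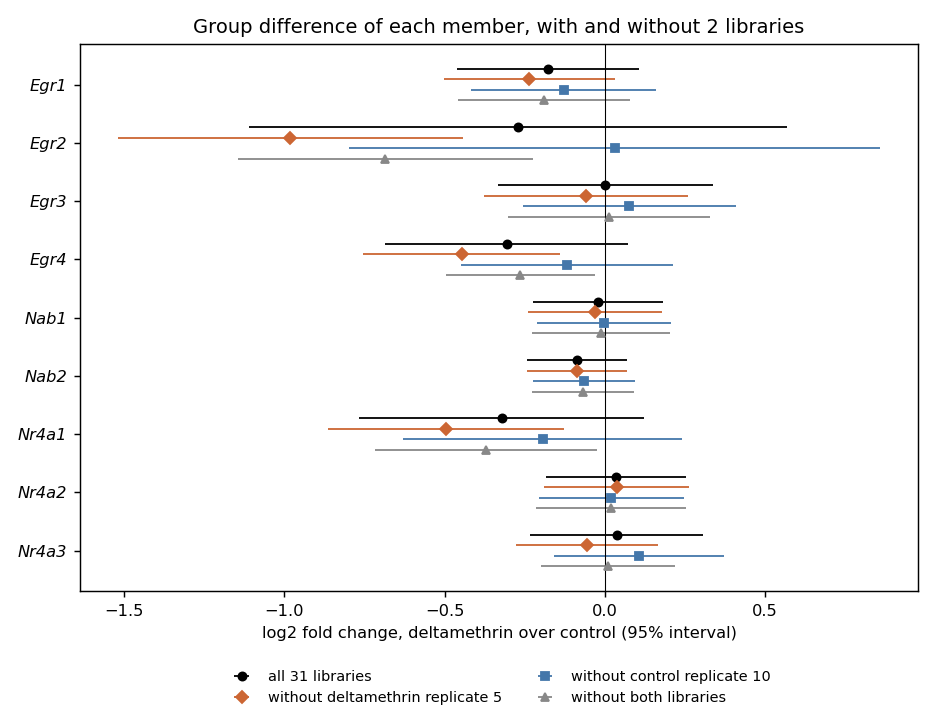
Log2 fold change of each member, deltamethrin over control, with its 95% interval from edgeR's quasi-likelihood fit, for all 31 libraries and with 1 or both of the named libraries left out. Egr2 moves from -0.27 to -0.98 without deltamethrin replicate 5 and to 0.030 without control replicate 10, while Nab1, Nab2 and Nr4a2 hardly move.

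Across libraries the inducible members went up and down together. Pearson's r of log2 CPM over the 31 libraries was computed for all 36 pairs, with p-values from 100000 permutations adjusted over the 36. For the 6 pairs among Egr1, Egr2, Egr4 and Nr4a1, r was 0.781 to 0.880 and Spearman's rho 0.736 to 0.892. Each of these r values had a permutation p of 1e-05, the smallest the permutations can give (adjusted 5.14e-05). Egr2 with Nr4a1 had the highest r of all pairs (0.880, rho 0.843). Within control the 6 values were 0.846 to 0.929 and within deltamethrin 0.677 to 0.853. They were 0.702 to 0.870 without control replicate 10 and deltamethrin replicate 5, so these relations did not rest on those libraries. For these 6 pairs the same 2 libraries were also the farthest from the median of the first gene of each pair. Leaving out the 2 farthest libraries was therefore the same check and adds nothing to it. Egr3 also went with them, with r = 0.743 for Egr1, 0.693 for Egr4, 0.618 for Nr4a1 and 0.496 for Egr2, each with an adjusted permutation p at or under 0.0119. Without control replicate 10 and deltamethrin replicate 5 these were 0.676, 0.619, 0.488 and 0.277, and the last, with Egr2, no longer passed (adjusted permutation p = 0.188).

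Nr4a3 behaved otherwise. Its r with Egr1, Egr2, Egr4 and Nr4a1 was 0.500 to 0.648 over all libraries, with each adjusted permutation p at or under 0.00836, but 0.129 to 0.513 without control replicate 10 and deltamethrin replicate 5. The relations of Nr4a3 with Egr2, Egr4 and Nr4a1 (0.255, 0.217 and 0.129 without those libraries) therefore rested on them. Spearman's rho over all libraries did not pass with Egr4 (0.379, adjusted permutation p = 0.0592) or Nr4a1 (0.331, adjusted permutation p = 0.0953). With Egr3, r was 0.425 (adjusted permutation p = 0.0297) and 0.188 without those libraries (adjusted permutation p = 0.358). It was 0.557 without the 2 libraries farthest from the Egr3 median. Nr4a3 with Nr4a2 had r = 0.470 over all libraries (adjusted permutation p = 0.0132) and 0.640 without the 2 libraries, but 0.377 (adjusted permutation p = 0.0732) without the 2 farthest from the Nr4a2 median. Nr4a2 had r = 0.167 with Nr4a1 (adjusted permutation p = 0.443), but r = 0.541 with Egr1 (adjusted permutation p = 0.00383) and 0.401 with Egr3 (adjusted permutation p = 0.0376). Without the 2 libraries its r with Egr1 was 0.618.

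The corepressors differed from each other in which genes they followed. Nab2 had r from 0.455 to 0.645 with Egr1, Egr2, Egr3, Egr4 and Nr4a1, each with an adjusted permutation p under 0.05. Within control its r with these 5 was 0.612 to 0.942, and the lowest, with Egr2, did not pass (adjusted permutation p = 0.0603). Within deltamethrin its r was 0.058 with Egr1, 0.135 with Egr3, 0.265 with Egr2, 0.291 with Egr4 and 0.509 with Nr4a1, none of which passed. The difference between groups was not tested. Nab1 had no positive relation past the threshold. Its r was -0.610 with Egr3 (adjusted permutation p = 0.00072) and -0.401 with Nr4a2 (adjusted permutation p = 0.0374). Without the 2 libraries farthest from the Egr3 median, r with Egr3 was -0.351 (adjusted permutation p = 0.0975), so that relation rests in part on them. Within control r with Egr3 was -0.606 (adjusted permutation p = 0.0690) and within deltamethrin -0.624 (adjusted permutation p = 0.0179). Without control replicate 10 and deltamethrin replicate 5 it was -0.808. In that setting Nab1 also had r = -0.531 with Egr1 (adjusted permutation p = 0.00725) and -0.416 with Egr4 (adjusted permutation p = 0.0430). Over all libraries these were -0.355 and -0.092 and did not pass. The relation with Nr4a2 was -0.306 (adjusted permutation p = 0.161) without the 2 libraries farthest from the Nab1 median, where it no longer passed. It was -0.409 (adjusted permutation p = 0.0439) without control replicate 10 and deltamethrin replicate 5. Within control it was -0.507 and within deltamethrin -0.304, and neither passed. Without TMM scaling factors neither the relation with Egr3 nor that with Nr4a2 passed over all libraries, so both depend on the scaling. There r was -0.321 with Egr3 (adjusted permutation p = 0.101) and -0.274 with Nr4a2 (adjusted permutation p = 0.161). In all 25 of 36 pairs had an adjusted permutation p under 0.05, 23 positive and 2 negative.

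**Figure D3:**
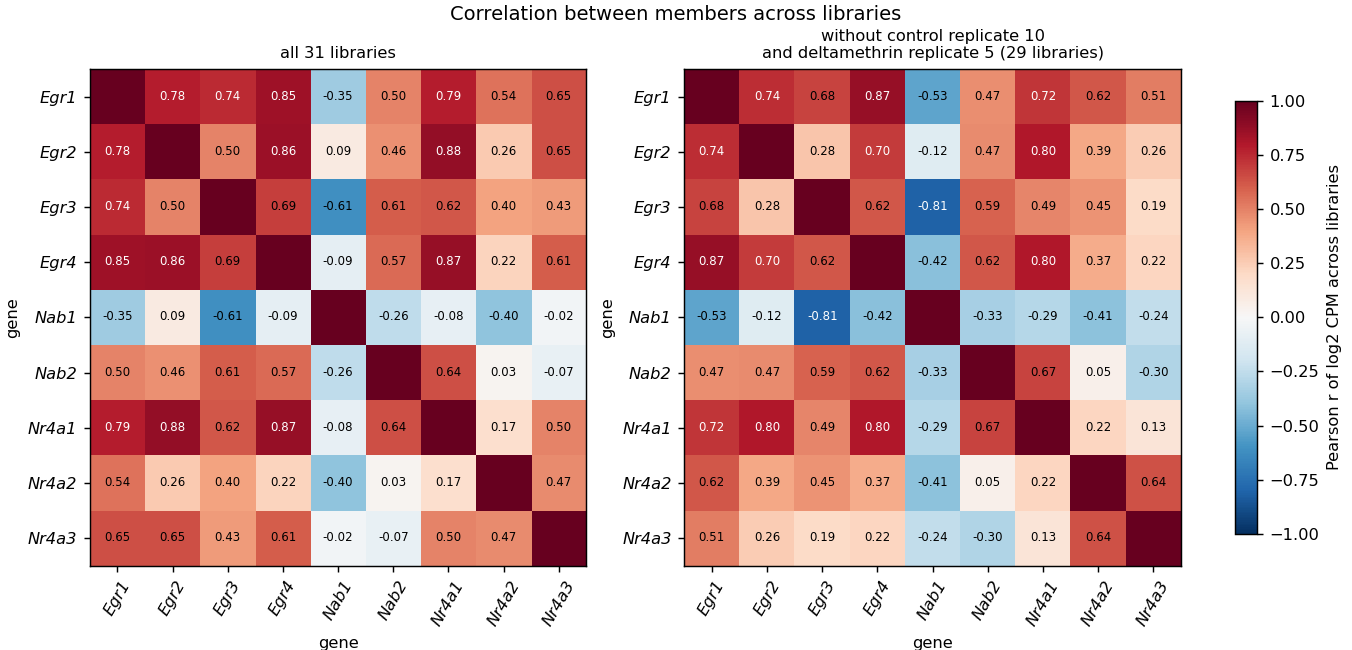
Pearson r of log2 CPM between each pair of members, over all 31 libraries (left) and over 29 libraries without control replicate 10 and deltamethrin replicate 5 (right), red for positive and blue for negative. The block of Egr1, Egr2, Egr4 and Nr4a1 stays between 0.702 and 0.870 on the right, while Nr4a3 with Nr4a1 goes from 0.500 to 0.129.

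The DNA just upstream of the start sites was searched for sites of the factors named above. RefSeq start sites (GRCm38.p6) were listed for 7 of the 9 members, and Egr1 and Egr3 were not among them. The 250 bases upstream of the start are printed for Egr2, Egr4 and Nr4a1, the members that went together most closely, and for Nr4a2, which had the lowest r with Nr4a1 among the Egr and Nr4a genes. None of these 4 windows overlaps an exon of the annotation. Capitals mark the searched motifs on either strand: the CArG box bound by serum response factor, TGACGT (the core of the cAMP response element), TGACGCA (a variant of that element, added after the Nr4a1 window had been seen), GCGNGGGCG (the Egr site) and AAAGGTCA (the Nr4a monomer site). The windows are chr10:67537619-67537868 (plus strand) for Egr2, chr6:85513590-85513839 (minus strand) for Egr4, chr15:101266596-101266845 (plus strand) for Nr4a1 and chr2:57124004-57124253 (minus strand) for Nr4a2. Those of Egr2 and Nr4a1 lie inside the GENCODE gene spans given above, which reach further upstream.
Egr2: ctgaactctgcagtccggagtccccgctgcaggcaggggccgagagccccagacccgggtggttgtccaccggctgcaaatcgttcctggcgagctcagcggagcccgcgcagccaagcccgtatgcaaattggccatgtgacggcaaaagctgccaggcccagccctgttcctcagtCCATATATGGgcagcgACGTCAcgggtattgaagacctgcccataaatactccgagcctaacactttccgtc
Egr4: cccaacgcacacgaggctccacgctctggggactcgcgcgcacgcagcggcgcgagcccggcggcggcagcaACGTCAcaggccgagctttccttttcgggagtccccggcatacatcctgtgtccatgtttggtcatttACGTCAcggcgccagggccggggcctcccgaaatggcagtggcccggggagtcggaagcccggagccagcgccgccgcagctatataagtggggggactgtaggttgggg
Nr4a1: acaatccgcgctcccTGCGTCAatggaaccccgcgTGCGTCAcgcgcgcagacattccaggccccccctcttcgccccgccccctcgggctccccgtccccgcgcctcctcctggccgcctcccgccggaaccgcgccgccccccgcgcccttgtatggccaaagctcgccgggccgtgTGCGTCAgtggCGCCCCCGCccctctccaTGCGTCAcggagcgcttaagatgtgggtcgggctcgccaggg
Nr4a2: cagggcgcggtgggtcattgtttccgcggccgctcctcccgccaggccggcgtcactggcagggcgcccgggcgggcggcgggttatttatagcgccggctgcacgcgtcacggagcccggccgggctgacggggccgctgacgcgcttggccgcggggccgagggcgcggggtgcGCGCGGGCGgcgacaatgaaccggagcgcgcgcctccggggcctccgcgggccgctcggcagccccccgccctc

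Only exact matches were searched, with the CArG box as CCWWWWWWGG (W being A or T). A site with a mismatch was not marked, so a lack of matches does not cover such sites. The Egr2 window holds 1 CArG box, whose first base lies 72 bases upstream of the start, and 1 TGACGT core at 56. This is 1 of 5 windows listed for Egr2, of which 4 hold a CArG box, 3 of them the same one in overlapping windows. Egr4 has no exact CArG box in its window and 2 TGACGT cores, at 178 and 110. Nr4a1 has neither of these and 4 copies of TGACGCA, at 235, 215, 71 and 42, with 1 Egr site at 60 that overlaps none of them. Nr4a2 has only 1 Egr site, at 74. Among the windows not printed, Nr4a3 has 3 TGACGT cores and Nab1 has 3 Egr sites and 1 TGACGCA, while the Nab2 window has none of the 5 motifs. The windows of Nr4a3, Nab1 and Nab2 each overlap an exon of the annotation. That of Nab2 (chr10:127666704-127666953, minus strand) lies inside its GENCODE gene span. The DNA upstream of that span was not searched, so the lack of motifs does not cover it. Of 32851 windows of the same length in the RefSeq table, 1.47% hold a CArG box, 6.47% TGACGT, 1.75% TGACGCA, 4.7% the Egr site and 1.34% the Nr4a site, which no member's window holds. A match is a string of letters, not evidence that a factor binds there.

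The genes whose pattern was most like each member's were found by Pearson r of log2 CPM over the 31 libraries, centred on the group means, among 15709 other genes with a mean of at least 1 CPM. These are descriptions, since the same libraries and their depth enter every value. Egr1 was most like Fos (0.872), Fosl2 (0.798) and Trib1 (0.785). Fos and Fosl2 encode subunits of the AP-1 factor. Egr2 was most like Arc (0.946), a synaptic immediate early gene, then Dusp6 (0.927), an ERK phosphatase, and Junb (0.912). Egr4 was most like Fosb (0.930), Fos (0.914) and Dusp6 (0.889). Nr4a1 was most like Arc (0.918), Trib1 (0.871) and Dusp1 (0.870). All 12 of these values stayed at 0.685 or more without control replicate 10 and deltamethrin replicate 5.

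For Egr3, Nab1, Nab2 and Nr4a2 the nearest genes were of other kinds. Egr3 was most like Adgrb2 (0.900), Acap3 (0.891) and Cbarp (0.878), none of which is an immediate early gene. Nab1 was most like Sergef (0.961), Crebrf (0.959) and Atad2b (0.958), and Nab2 like Cnpy3 (0.819), Ak1 (0.818) and Rnf41 (0.818). Nr4a2 was most like Bmp3 (0.761) and Htr2a (0.760), a cortical serotonin receptor gene. Nr4a3 was most like Ptgs2 (0.735) and Bdnf (0.707), both activity-regulated, and P4ha1 (0.681), and without the 2 libraries its r was 0.328 with Ptgs2, 0.367 with Bdnf and 0.538 with P4ha1.

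In CPM after TMM scaling, Nab1 and Egr3 moved with the make-up of the library. Each member's log2 CPM was set against 5 measures of composition, the mitochondrial ribosomal RNA share and the marker levels of striatum, cerebellum, choroid plexus and blood, and 4 of the 45 relations had an adjusted permutation p under 0.05. Nab1 was higher where the log2 mitochondrial ribosomal RNA share was higher (r = 0.784, rho = 0.716, adjusted permutation p = 0.000225 for r), with r = 0.791 within control, 0.783 within deltamethrin and 0.749 without the 2 farthest libraries. It was also higher where blood markers were higher (r = 0.735, rho = 0.705, adjusted permutation p = 0.000225), with r = 0.872 within control, 0.634 within deltamethrin (adjusted permutation p = 0.0968) and 0.633 without the 2 farthest. Egr3 went the other way with the mitochondrial ribosomal RNA share (r = -0.690, rho = -0.661, adjusted permutation p = 0.0003), with r = -0.752 within control and -0.607 within deltamethrin, where the adjusted permutation p-values were 0.0632 and 0.0968. Without the 2 farthest libraries that r was -0.501 (adjusted permutation p = 0.0743), so it rests in part on them. Without control replicate 10 and deltamethrin replicate 5 it was -0.783 (adjusted permutation p = 0.000225). Egr3 against blood markers (r = -0.501, rho = -0.458, adjusted permutation p = 0.0492) was -0.370 (adjusted permutation p = 0.389) without the 2 farthest and -0.659 (adjusted permutation p = 0.00203) without the 2 named libraries. Egr1 against the mitochondrial ribosomal RNA share was -0.466 (adjusted permutation p = 0.0618) over all libraries and -0.542 (adjusted permutation p = 0.0211) without the 2 named libraries, where 5 of the 45 relations passed. The 5 blood markers summed to 492 to 1670 CPM in control and 380 to 1242 CPM in deltamethrin, and none was at 0. With the mitochondrial ribosomal RNA share as a covariate, the log2 fold change of Nab1 between the groups was 0.011 ± 0.064 (SE) and that of Egr3 -0.018 ± 0.13, and the part of blood in these values was not tested. None of the 27 relations with striatum, cerebellum or choroid plexus markers passed. The 45 relations were not computed without TMM scaling factors, so how far they depend on the scaling was not tested. Control replicate 2 had the highest mitochondrial ribosomal RNA share (40.2%) and the lowest TMM factor (0.613). Its Nab1 value, the highest at 98.7 CPM, came from 1063 reads, the fewest of any library for that gene.

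**Figure D4:**
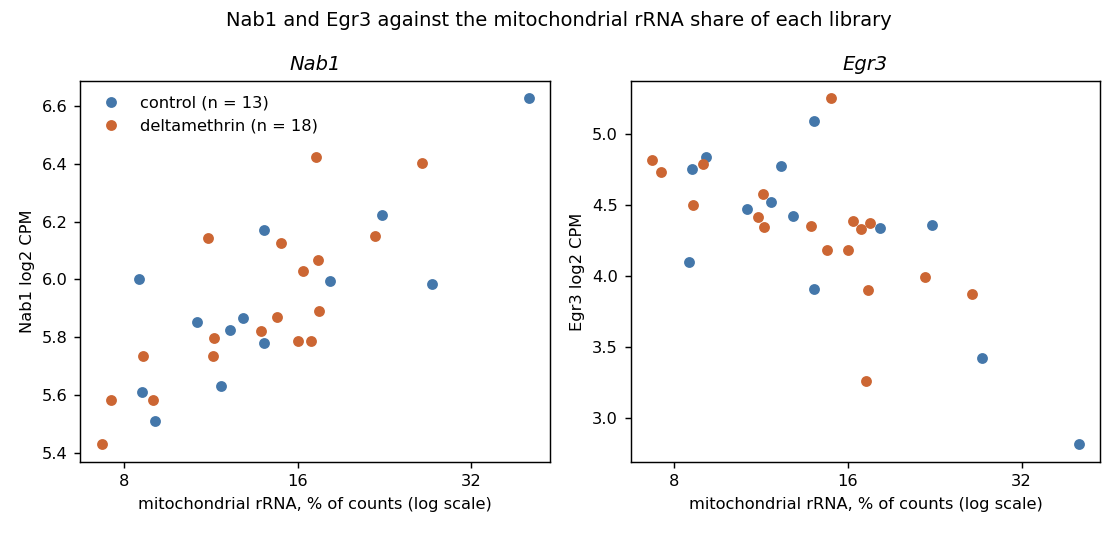
Log2 CPM of Nab1 (left) and Egr3 (right) against the share of counts taken by mitochondrial ribosomal RNA on a log axis, 1 point per library, control in blue and deltamethrin in orange. Nab1 is higher (r = 0.784) and Egr3 lower (r = -0.690) in libraries with more mitochondrial ribosomal RNA, in both groups.

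The genes that act around the members showed no larger differences. Of 27 upstream factors and kinases (serum response factor, ETS and CREB families, their coactivators, Mef2 factors and kinases), 0 had an unadjusted p under 0.05, where 4.37% of all genes did, with 17 positive and 10 negative fold changes and a median log2 fold change of 0.044. The smallest unadjusted p of that list was 0.119, for Elk3, an ETS partner of serum response factor (5.46 ± 0.666 CPM in control, SD, n = 13, and 5.93 ± 0.807 CPM in deltamethrin, SD, n = 18, log2 fold change 0.12 ± 0.073 SE). Of 10 partners (retinoid X receptors that pair with Nr4a1 and Nr4a2, chromatin corepressors and the glucocorticoid receptor) 0 passed likewise, and the nearest was Rxrb (63.7 ± 6.60 and 58.9 ± 5.75 CPM, log2 fold change -0.11 ± 0.057, edgeR unadjusted p = 0.0530, adjusted 0.813). Of 12 known target genes 0 passed, with 8 positive and 4 negative fold changes and a median of 0.034. The smallest p among them was that of Gadd45b, a stress and activity gene (11.6 ± 5.85 and 9.50 ± 3.39 CPM, log2 fold change -0.29 ± 0.17, unadjusted p = 0.104).

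Among 20 other activity genes 0 passed over all genes by edgeR, and 3 were lower and 0 higher at an unadjusted p under 0.05, where 2.37% and 2% of all genes were. Their median log2 fold change was -0.17, and 16 of 20 were negative, where 9665 of the 19529 genes tested were. Without both control replicate 10 and deltamethrin replicate 5, 8 were lower and 0 higher, where 1.72% and 1.67% of all genes were, with a median of -0.12. Without deltamethrin replicate 5 alone 10 were lower, where 3.06% of all genes were. Without control replicate 10 alone 2 were lower, where 1.27% of all genes were. In that fit 11 of 20 fold changes were negative, with a median of -0.038. The negative count was 18 without deltamethrin replicate 5 alone, with a median of -0.25, and 14 without both. In any of these fits 0 of 20 had an adjusted p under 0.05 by edgeR. Fos ran from 2.45 through 7.95 to 42.7 CPM in control and from 2.82 through 5.15 to 36.2 CPM in deltamethrin. Arc ran from 49.2 through 96.7 to 228 CPM and from 47.2 through 79.9 to 320.1 CPM. For both genes the highest control value was that of replicate 10 and the highest deltamethrin value that of replicate 5, the libraries that led the Egr and Nr4a genes. Fos had a log2 fold change of -0.68 ± 0.38 (SE, unadjusted p = 0.0804), and -0.70 ± 0.27 (edgeR unadjusted p = 0.0134, adjusted 0.922) without both libraries. Over all libraries that of Arc, a known Egr target, was -0.25 ± 0.22 (SE, unadjusted p = 0.265). Without deltamethrin replicate 5 Arc had -0.48 ± 0.16 (edgeR unadjusted p = 0.00544, adjusted 0.713) and Gadd45b -0.39 ± 0.15 (unadjusted p = 0.0128), and without both libraries Arc had -0.34 ± 0.14 (unadjusted p = 0.0239).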

How the data were processed

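Total RNA from mouse brain was sequenced in 31 samples, grouped by their agent label (13 control, 18 deltamethrin). The authors deposited raw counts per Ensembl gene with no normalization. Per the submitters' processing notes, MultiQC, Trimmomatic, HISAT2, SAMtools and the build GRCm38 were used, and the counting tool, annotation and strand setting are not given in the sources used here. Total counts per library ran from 17570311 to 38680621, and their number sets the counting error.

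Genes were filtered with filterByExpr (minimum count 10, minimum total 15), scaled by TMM and fitted with edgeR 4.0.16 (R 4.3.3; quasi-likelihood, robust=TRUE, no covariates), with p-values adjusted by Benjamini-Hochberg over the 19529 genes tested. The SE is the absolute log2 fold change over the square root of F, intervals are 95%, with a prior count of 2 in log2 CPM. Of the 48795 gene IDs, 48349 were found in the table of GENCODE M21 names, whose coordinates and exon lengths (union of exons) are printed. Correlations used 100000 permutations. The pipeline was tested on simulated counts.

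The members and gene lists were chosen with earlier results of these data known. Named genes were all members, the 3 genes most like each (1 of these is not reported here), and from the upstream, partner and target lists up to 5 genes with an unadjusted p under 0.05, or the 1 smallest. The other activity genes were only counted, with Fos and Arc as references. The marker genes Prx and Ncmap were named after their values were seen. Alternatives were RLE, upper quartile or no scaling, other count filters, DESeq2 1.42.0, limma voom 3.58.1, robust=FALSE, 4 covariates and leaving out each library. Leaving out control replicate 10 and deltamethrin replicate 5 together was added after seeing the data.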

Additional observations from a re-analysis of the deposited data

How the results depend on the processing

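By edgeR, DESeq2 or limma voom, 0 members had an adjusted p under 0.05 under any of the 12 other settings named under the processing, in any of the 31 fits that each left out 1 library, or without control replicate 10 and deltamethrin replicate 5 together. The number of members with an unadjusted p under 0.05 was 0, and 3 (Egr2, Egr4 and Nr4a1) without both libraries, and ran from 0 to 3 when 1 library was left out, with 3 only without deltamethrin replicate 5. The median log2 fold change of the members ran from -0.10 to -0.061 under the other alternatives and from -0.13 to -0.0035 when 1 library was left out. Egr1, Egr4, Nab2 and Nr4a1 kept a negative fold change in every fit. Signs near 0 turned: Egr3 was -0.018 with the mitochondrial rRNA share, -0.048 with the striatum markers and -0.022 with the cerebellum markers as covariate, and Nab1 was 0.011 with the mitochondrial rRNA share, 0.016 with the cerebellum markers and 0.046 without scaling factors. Nr4a3 was -0.00084 with the striatum markers. Across the fits that left out 1 library the fold change ran from -0.98 to 0.030 for Egr2, from -0.072 to 0.076 for Egr3, from -0.057 to 0.046 for Nab1, from -0.0030 to 0.085 for Nr4a2 and from -0.057 to 0.11 for Nr4a3. The cause of these changes of sign was not tested. The count of partners with an unadjusted p under 0.05 was 1 (Rxrb) in place of 0 with a mean count of at least 50, DESeq2, the mitochondrial rRNA covariate and the title number covariate, and 0 to 1 when 1 library was left out. For upstream genes it was 0 to 1 when 1 library was left out (Map2k2 or Rps6ka4, without control replicate 2 or deltamethrin replicate 14). For targets it was 1 (Arc) without both libraries and 0 to 2 when 1 was left out, with Arc and Gadd45b without deltamethrin replicate 5. Of the 36 pairs of members 25 had an adjusted permutation p under 0.05, against 14 within control and 16 within deltamethrin, where fewer libraries enter. Of the 45 relations with composition 4 did, against 2 when the 2 farthest libraries were dropped, 2 in the controls alone, 1 in the deltamethrin group alone and 5 without both libraries. Egr2 had the fewest reads of the members (12 in the lowest library). No paired analysis was possible because replicate numbers only follow the order of the samples.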
